A study of Rattus norvegicus with 16 samples.

Results

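The genes described are 10 that encode actin-binding and foot process proteins of the podocyte, chosen by symbol: Synpo, Podxl, Ezr, Actn4, Inf2, Anln, Myo1e, Cttn, Dnm2 and Cfl1. All 10 symbols were found among the 13222 genes of the expression table. They take 11 rows, because Cttn is listed under 2 Ensembl identifiers. Poly(A) RNA was sequenced from glomeruli, the filtering tufts of the kidney, sieved from male Wistar rats of about 175 g on day 11. Each of 4 groups held 4 rats. Control rats are labelled healthy and no age is given. PAN rats received puromycin aminonucleoside, a podocyte toxin, by vein and are the model of nephrotic syndrome. Rats of the other two groups received PAN and then daily gavage of either pioglitazone, a thiazolidinedione agonist of the nuclear receptor PPARγ, or GQ-16, a partial agonist of the same receptor. The protocol also names a sham vehicle, without saying whether control rats received it, and it states no dose. Numbers given to rats only name them within a group.

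Podocytes wrap the glomerular capillaries with interdigitating foot processes, and bundled actin filaments hold these processes in shape. When podocytes are injured, the foot processes flatten and protein leaks into the urine, a change known as effacement. Among the genes described, Actn4 and Synpo encode proteins that cross-link and stabilise the filaments, Inf2 a formin that assembles and severs them, Anln and Myo1e proteins of the contractile cortex, and Podxl and Ezr a surface sialomucin and the linker that joins it to actin. Cttn, Dnm2 and Cfl1 act in branched actin, membrane fission and filament turnover. Inherited variants of ACTN4, INF2, ANLN and MYO1E in people cause focal segmental glomerulosclerosis.

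Values are CPM, the reads of a gene scaled to a fixed library total. A gene was called changed when its adjusted p was under 0.05 in limma, fitted to log2(CPM + 1) in all 16 rats, with Benjamini-Hochberg adjustment across the 13222 genes. Libraries held from 13351137 to 21977663 reads, and the member row with the lowest values, Anln, had 5.41 CPM or more, against 0.225 CPM or less for a count of 3 reads. The libraries differed in composition. Reads of 13 mitochondrial genes made up 13.7% to 39.0% of control libraries, 5.83% to 10.6% of PAN libraries, 8.61% to 19.0% with pioglitazone and 6.63% to 30.9% with GQ-16, and the median gene was 0.28 higher in PAN than in control on the log2 scale. Scaling by the median ratio between libraries removed this shift (median -0.003). The tissue label was checked on 12 podocyte markers that are not among the genes described. Their summed level ran from 1571 to 7250 CPM in control and from 5916 to 9157 CPM in PAN. The 6 proximal tubule markers summed to 3332 to 7416 CPM in control and 2552 to 8444 CPM in PAN, so tubule RNA was also present. Its part in the levels of the members was not tested. None of these markers was at 0 reads in any library. Every gene of the table reached 2 CPM in at least 8 libraries, so the absence of zeros cannot tell tissues apart. The mean level of the 12 podocyte markers on the log2(CPM + 1) scale was 8.44, 5.98, 5.96 and 7.14 in control rats 1 to 4. Their mitochondrial shares were 13.7%, 39.0%, 32.1% and 18.9%, so the highest marker level came with the lowest share. Which of these rats is unusual was not tested. In whole glomeruli fewer cells of a type and less RNA per cell cannot be told apart.

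Upstream sequence of 4 genes is shown because their levels behaved differently across the rats: Anln rose in all injured groups, while Podxl, Myo1e and Inf2 went up and down with the podocyte markers and, less closely except for Inf2, with mesangial and smooth muscle markers. The sequences are from RefSeq (GRCr8), matched by symbol. RefSeq lists all 10 symbols, but a promoter sequence was at hand for 9 of them, without Actn4. Each ends at the base before the annotated start and runs 5′ to 3′ on the gene's strand. Capitals mark, on either strand, TTTGAA in Anln (the letters of the CHR element of cell cycle promoters), the CArG box (the binding element of serum response factor) in Myo1e, GGAATG (the core element of TEAD factors) in Inf2 and GGGCGG (the GC box) in Podxl. Only the motif named for each gene is in capitals, so the GGGCGG matches of Anln and Inf2 are in lower case.
Anln, chr8:29197514-29197633, minus strand: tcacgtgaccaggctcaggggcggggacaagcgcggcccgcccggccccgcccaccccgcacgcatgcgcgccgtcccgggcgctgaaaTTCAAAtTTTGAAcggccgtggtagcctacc
Myo1e, chr8:79768708-79768827, plus strand: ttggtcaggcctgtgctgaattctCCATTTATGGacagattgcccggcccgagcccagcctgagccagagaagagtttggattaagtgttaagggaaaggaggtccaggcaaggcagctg
Inf2, chr6:137470096-137470285, plus strand: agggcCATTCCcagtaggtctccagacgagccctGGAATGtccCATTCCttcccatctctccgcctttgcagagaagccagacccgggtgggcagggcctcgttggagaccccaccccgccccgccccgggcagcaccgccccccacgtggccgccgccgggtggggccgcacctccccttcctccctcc
Podxl, chr4:61149132-61149281, minus strand: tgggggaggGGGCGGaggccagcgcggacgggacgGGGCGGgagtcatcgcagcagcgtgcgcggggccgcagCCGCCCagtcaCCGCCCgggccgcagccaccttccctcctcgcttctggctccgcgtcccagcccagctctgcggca

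Within 250 bases upstream of the start, on both strands, TTTGAA was found in 1 of the 9 promoters, that of Anln, and in 10.3% of the 10717 promoters of measured genes. The CArG box occurred in Myo1e alone, against 1.28% of measured promoters, and so did the E-box letters CAGCTG, against 11.9%. GGAATG occurred in Inf2 alone, with 3 matches, against 9.99%. GGGCGG was in 7 of 9 (Synpo, Podxl, Ezr, Inf2, Anln, Cttn and Cfl1) against 57.5%, and CCAAT in 4 of 9 (Ezr, Myo1e, Dnm2 and Cfl1) against 34.9%. No match of one motif overlapped a match of another in these 9 promoters. A match describes letters in a window, not binding.

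PAN was first compared with control, for the effect of the injury. Anln, Inf2, Actn4, Cfl1 and Dnm2 rose, so that 5 of 11 member rows were called, all higher, against 22.3% of all genes called (21.7% higher). The same 5 rows were those in which all PAN rats lay above all control rats, a pattern found in 22.4% of all genes. The median log2 change was 0.51 over the members and 0.28 over all genes. Under median-ratio scaling, Anln, Inf2 and Actn4 were called and Cfl1 and Dnm2 were not. That scaling also changed the split of calls over all genes from 2874 higher and 69 lower to 941 higher and 200 lower (8.63% called). Without control rat 1 there were 8 called rows, with Synpo, Myo1e and the first Cttn row added, in a fit that called 37.5% of all genes. Without the 3 libraries above 30% mitochondrial reads (control rats 2 and 3 and GQ-16 rat 2) only Anln was called, in a fit that called 56 genes in all (0.424%).

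**Figure D1:**
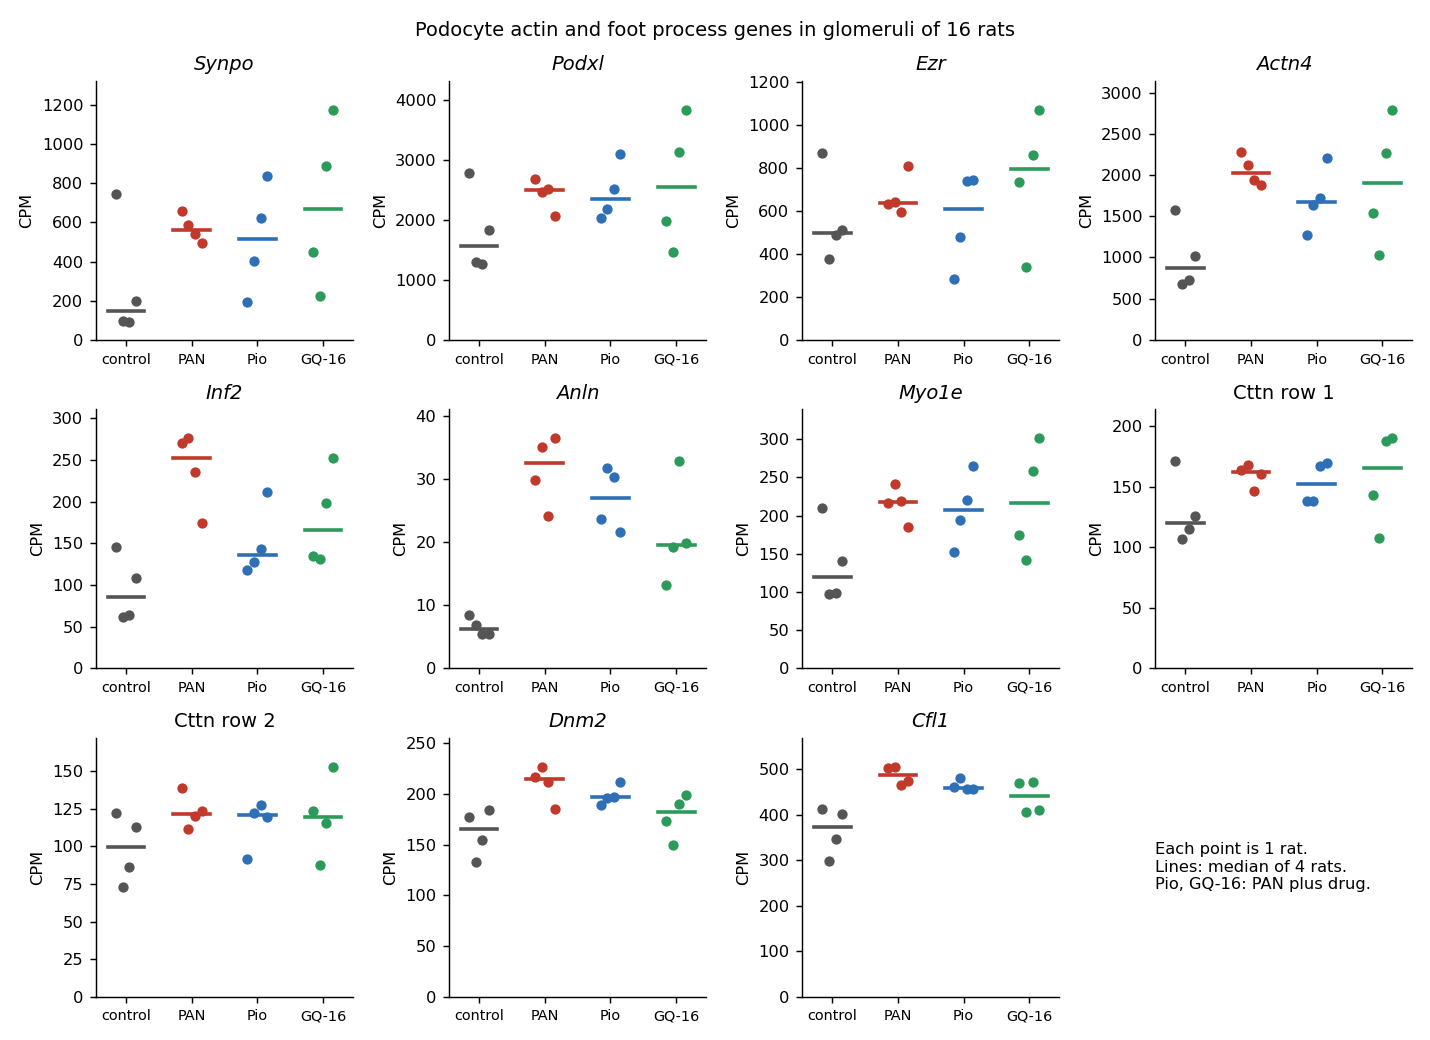
CPM of each member row in each of the 16 rats. The horizontal axis gives the group and lines mark the median of 4 rats. Anln lies between 5.41 and 8.43 CPM in control and between 13.1 and 36.4 CPM in the 12 injured rats, while control rat 1 lies among the injured rats for Synpo and Podxl.

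Anln (ENSRNOG00000014343) encodes anillin, a scaffold that binds actin, myosin and septins at the cleavage furrow and, in podocytes, the signalling adaptor CD2AP. It stood at 8.43, 6.89, 5.41 and 5.44 CPM in the 4 control rats and at 29.8, 35.1, 24.1 and 36.4 CPM in the PAN rats. With pioglitazone it was 23.6, 31.7, 30.3 and 21.5 CPM, and with GQ-16 it was 13.1, 19.1, 32.9 and 19.9 CPM. No injured rat overlapped the control rats, and GQ-16 rat 1 was the lowest of the 12. From control to PAN it rose from 6.54 ± 1.43 to 31.4 ± 5.60 CPM (SD, n = 4), a log2 change of 2.10 (standard error 0.23, adjusted p 0.000108 by limma) and 1.83 under median-ratio scaling. It was called without each rat in turn, with adjusted p-values up to 0.000829.

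Inf2 (ENSRNOG00000028650) stood at 146, 61.2, 64.2 and 108 CPM in control and at 270.4, 276, 235 and 175 CPM in PAN. It was 118, 128, 144 and 212 CPM with pioglitazone and 135, 131, 198 and 252 CPM with GQ-16. PAN rats lay above all control rats, and both drug groups overlapped control through control rat 1. The rise in PAN was 1.40 on the log2 scale (standard error 0.28, adjusted p 0.00481 by limma) and 1.10 under median-ratio scaling. With the podocyte marker level as a covariate it was 0.79 and still called (limma adjusted p 0.0105). Taken as Inf2 minus that level on the log2 scale, the groups overlapped, at -1.24 to 0.07 in control and -0.42 to -0.07 in PAN. No fit used the mesangial and smooth muscle marker level as a covariate. A covariate for a library number from 25 upwards, which 3 of 4 PAN rats and 0 of 4 control rats carry, ended the call (limma adjusted p 0.112), in a fit that called 2.97% of all genes.

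Actn4 (ENSRNOG00000020433), the alpha-actinin that bundles filaments in the foot process, stood at 1581, 680.0, 724 and 1015 CPM in control and at 2286, 2120.4, 1937 and 1881 CPM in PAN. It was 1277, 1643, 1716 and 2210.1 CPM with pioglitazone and 1542, 1026, 2271 and 2793 CPM with GQ-16. Each PAN rat exceeded control rat 1, the highest control. The rise was 1.12 on the log2 scale (standard error 0.31, adjusted p 0.0222 by limma). It was not called with the podocyte marker covariate (0.45, limma adjusted p 0.0858), with the library number covariate (limma adjusted p 0.300), or without control rat 2, control rat 3, PAN rat 1 or PAN rat 2, with adjusted p-values up to 0.0908. Leaving out any 1 of those 4 rats left 2 member rows called, Inf2 and Anln, in fits that called 6.34% to 9.96% of all genes, down from 22.3%. Over all fits without 1 rat the log2 change of Actn4 ran from 0.96 to 1.37.

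Cfl1 (ENSRNOG00000020660) encodes cofilin, which severs and depolymerises actin filaments. It stood at 412, 299, 347 and 401 CPM in control and at 503, 505, 466 and 473 CPM in PAN, a rise of 0.43 (standard error 0.12, adjusted p 0.0253 by limma). Dnm2 (ENSRNOG00000007649), the dynamin that pinches vesicles from the membrane, stood at 177, 133, 155 and 185 CPM in control and at 217, 227, 212 and 185 CPM in PAN, a rise of 0.38 (standard error 0.13, adjusted p 0.0426 by limma). For both genes the groups did not overlap, although the lowest PAN value of Dnm2 was next to the highest control value. Neither call held under median-ratio scaling, where the changes were 0.12 (limma adjusted p 0.367) and 0.08 (limma adjusted p 0.442). Both calls were also lost without each of the 4 rats named for Actn4, and that of Dnm2 without PAN rat 3, with adjusted p-values up to 0.0892 for Cfl1 and 0.147 for Dnm2. Over all fits without 1 rat the log2 changes ran from 0.34 to 0.49 for Cfl1 and from 0.29 to 0.45 for Dnm2. Cfl1 has 11 annotated pseudogenes named after it in RefSeq and Ezr has 1, so reads could be split between copies and these levels are less certain.

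Synpo (ENSRNOG00000019181) encodes synaptopodin, which stabilises stress fibres in foot processes. It stood at 745, 96.4, 93.4 and 199.9 CPM in control and at 659, 588, 539 and 494 CPM in PAN. It was 194, 403, 623 and 835 CPM with pioglitazone and 448, 223, 890.3 and 1176 CPM with GQ-16. The control rats spanned 7.97-fold and the PAN rats 1.33-fold, and control rat 1 exceeded every PAN rat. The log2 change in PAN had a 95% interval of 0.25 to 2.87 and was not called (limma adjusted p 0.0736). Without control rat 1 it was 2.21 and called (limma adjusted p 0.00750). With the podocyte marker level as a covariate it was 0.06 (limma adjusted p 0.825), against 1.56 without it.

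Podxl (ENSRNOG00000012495), the sialomucin that coats the foot process surface, stood at 2784, 1302, 1266 and 1837 CPM in control and at 2685, 2474, 2518 and 2067 CPM in PAN. Control rat 1 was again above all PAN rats. The 95% interval of its log2 change was -0.14 to 1.16 (limma adjusted p 0.209). Ezr (ENSRNOG00000018524), its actin linker ezrin, ranged from 375 to 870.5 CPM in control and from 596 to 812 CPM in PAN, with an interval of -0.44 to 1.07 (limma adjusted p 0.499). Myo1e (ENSRNOG00000061928), a membrane-bound class I myosin, stood at 210.4, 97.0, 99.3 and 141 CPM in control and at 217, 241, 219.7 and 185 CPM in PAN, with an interval of 0.17 to 1.27 (limma adjusted p 0.0569). Its groups overlapped through control rat 1.

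Cttn encodes cortactin, which stabilises branched actin. The row ENSRNOG00000047280 ranged from 107 to 171 CPM in control and from 146 to 168 CPM in PAN. The row ENSRNOG00000050994 ranged from 72.7 to 122 CPM in control and from 112 to 138 CPM in PAN. Neither change was called (limma adjusted p 0.178 and 0.150). The second row held 0.613 to 0.895 of the CPM of the first in the 16 rats. RefSeq GRCr8 lists Cttn once, so how reads were divided between these rows is uncertain.

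**Figure D2:**
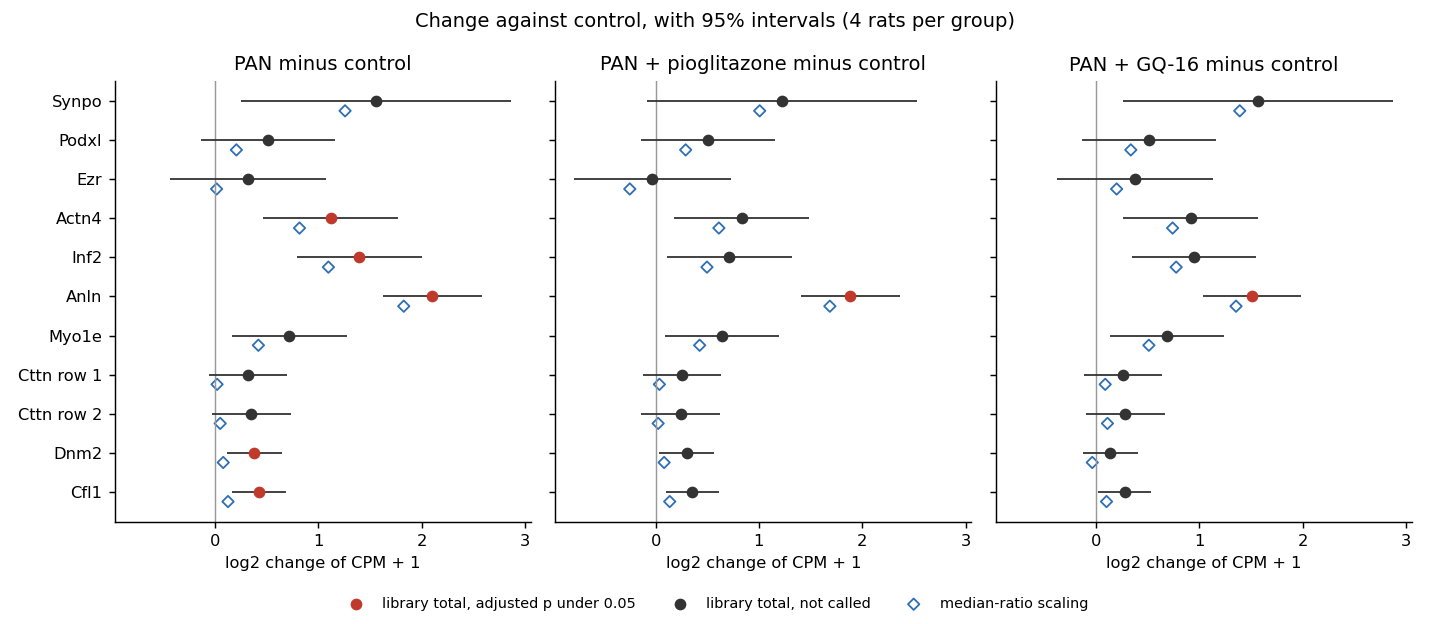
Log2 change of CPM + 1 against control for each member row, one panel per injured group, with 95% intervals from limma (4 rats per group). Filled red points were called, and open diamonds give the change under median-ratio scaling. Anln is the row called in all 3 panels.

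The drug groups were also set against the same 4 control rats, so these comparisons share their controls with the one above. Anln was the one row called with pioglitazone, a log2 change of 1.88 (standard error 0.23, adjusted p 0.00101 by limma), where 4.98% of all genes were called. It was the one row called with GQ-16, a log2 change of 1.51 (standard error 0.23, adjusted p 0.0139 by limma), where 0.151% of all genes were called. With GQ-16 it was also the one row without overlap, a pattern in 4.92% of all genes. Dnm2 and Cfl1 with pioglitazone also lay above control in every rat, a pattern in 13.1% of all genes, with limma adjusted p-values of 0.143 and 0.0927. Without control rat 1 there were 6 rows called with pioglitazone (Synpo, Actn4, Inf2, Anln, Myo1e and Cfl1) and 5 with GQ-16 (Synpo, Actn4, Inf2, Anln and Myo1e), where 12.6% and 11.9% of all genes were called. The Anln call with GQ-16 was lost without control rat 2, control rat 3 or GQ-16 rat 3, with adjusted p-values up to 0.0757 and 0 to 3 genes called in all, and with the podocyte marker covariate, where the log2 change was 1.35 (limma adjusted p 0.0613). Without the 3 libraries of high mitochondrial share Anln was not called with either drug, at 1.82 (limma adjusted p 0.104) with pioglitazone and 1.47 (limma adjusted p 0.511) with GQ-16, in fits that called 0 of 13222 genes.

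The drug groups were compared with PAN to ask whether treatment changed the injured glomerulus. No member was called with pioglitazone, where 0.0% of all genes were called, or with GQ-16, where 0.0151% were. Inf2 had the lowest unadjusted p with pioglitazone, at 150.2 ± 42.5 CPM against 239 ± 46.6 CPM in PAN (SD, n = 4). This was a log2 change of -0.68 with a 95% interval of -1.29 to -0.08 (limma unadjusted p 0.0291, adjusted p 0.916), and pioglitazone rat 4 overlapped the PAN rats. Anln had the lowest unadjusted p with GQ-16, at 21.3 ± 8.30 CPM against 31.4 ± 5.60 CPM. This was a log2 change of -0.59 with a 95% interval of -1.07 to -0.12 (limma unadjusted p 0.0182, adjusted p 0.496), and GQ-16 rat 3 overlapped PAN. Those were the 1 of 11 member rows in each comparison with an unadjusted p under 0.05, against 3.74% of all genes with pioglitazone and 8.27% with GQ-16, the latter about the share that 1 of 11 makes.

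Synpo and Podxl did not differ detectably between treated and PAN rats, and the intervals were wide. For Synpo they were -1.64 to 0.97 with pioglitazone and -1.30 to 1.31 with GQ-16, and for Podxl -0.65 to 0.65 and -0.64 to 0.65. Dnm2 and Cfl1 were bounded more closely, at -0.35 to 0.19 and -0.33 to 0.19 with pioglitazone and at -0.51 to 0.02 and -0.41 to 0.11 with GQ-16. GQ-16 and pioglitazone were compared directly, at doses the labels do not state. No member was called (0.0% of all genes), none had an unadjusted p under 0.05, and the interval of the difference was -0.85 to 0.11 for Anln and -0.37 to 0.84 for Inf2.

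**Figure D3:**
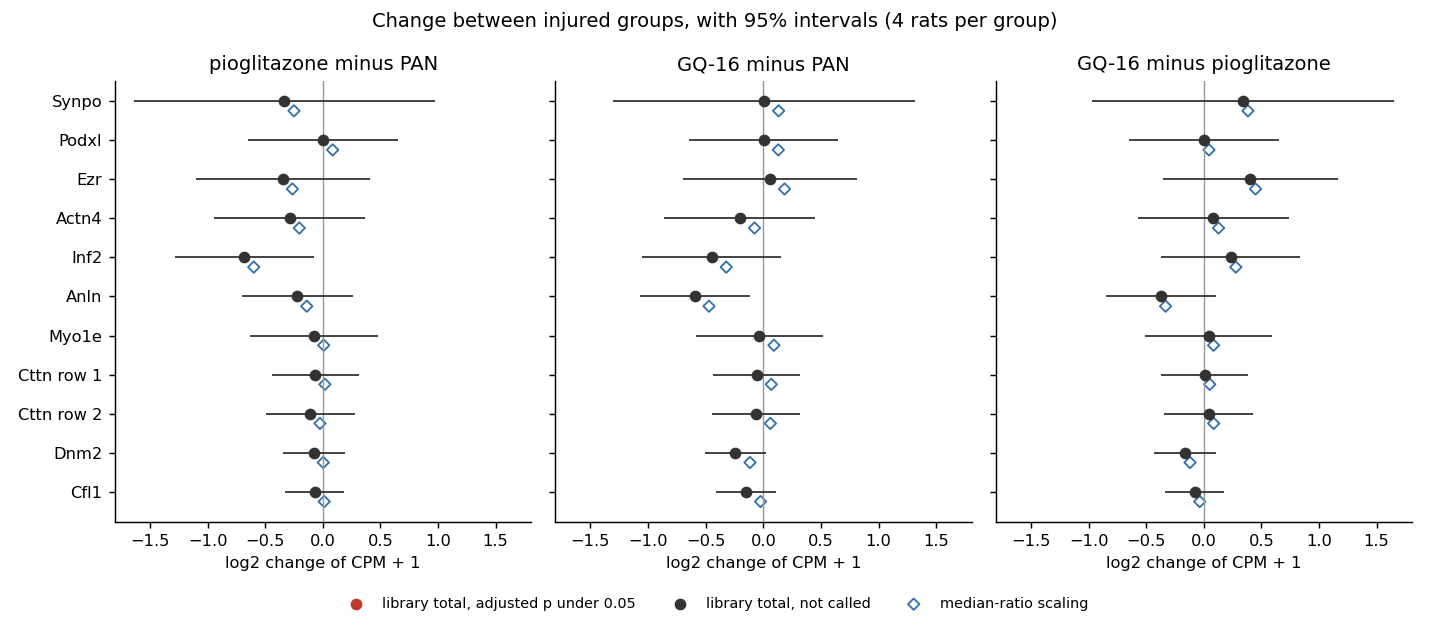
Log2 change of CPM + 1 between injured groups for each member row, with 95% intervals from limma (4 rats per group), and open diamonds for median-ratio scaling. No point is called. The Inf2 interval with pioglitazone and the Anln interval with GQ-16 lie below 0 before adjustment.

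Most members varied together from rat to rat, as did many other genes, while Anln and Cfl1 followed the rest less closely. After group means were removed, the Pearson correlation over 16 rats with the mean level of the 12 podocyte markers was 0.99 for Synpo, 0.96 for Myo1e, 0.95 for Actn4, 0.93 for Podxl and 0.90 for Inf2. It was 0.89 and 0.87 for the Cttn rows, 0.87 for Ezr, 0.78 for Dnm2, 0.57 for Cfl1 and 0.29 for Anln, against a median of 0.58 over all genes. The mean level of 6 mesangial and smooth muscle markers gave 0.91 for Inf2, above its value with the podocyte markers, 0.88 for Podxl, 0.86 for Actn4, 0.84 for Myo1e, 0.81 for Synpo, 0.78 for Dnm2, 0.77 and 0.70 for the Cttn rows, 0.56 for Ezr, 0.46 for Cfl1 and 0.28 for Anln, against a median of 0.55 over all genes. All values of a rat come from 1 library and share its scaling, so these are descriptions. Podxl and Actn4 were the closest pair (0.98), and Anln and Dnm2 the least close (0.07). Pairs with Anln ran from 0.07 to 0.43. With the podocyte marker level as a covariate, Inf2 and Anln were the members called in PAN, where 5.88% of all genes were called.

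**Figure D4:**
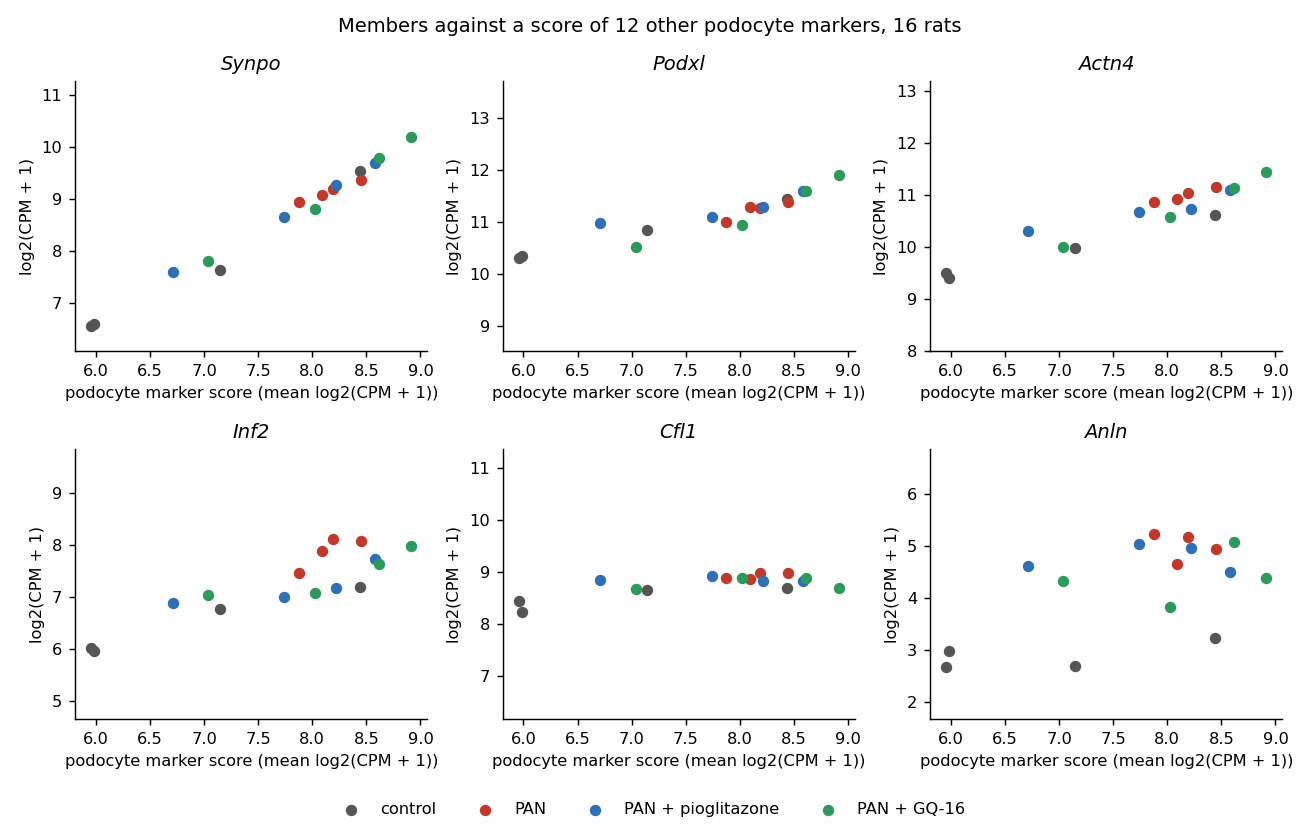
Level of 6 members (vertical, log2(CPM + 1), each panel spanning the same number of units) against the mean level of 12 other podocyte markers (horizontal), one point per rat. Synpo follows the markers closely, Cfl1 changes little, and for Anln all 4 control rats lie below all 12 injured rats.

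The spread over the 16 rats followed the same order in part. The highest value was 12.6 times the lowest for Synpo, 6.74 for Anln, 4.51 for Inf2, 4.11 for Actn4, 3.79 for Ezr, 3.11 for Myo1e and 3.03 for Podxl. It was 2.10 and 1.77 for the Cttn rows, 1.71 for Dnm2 and 1.69 for Cfl1. Genes with the most similar profiles, after group means were removed, were Mertk, Mgat4a and Fzd2 for Synpo (r 0.99 each), Gab2, Zfp329 and Tjp1 for Podxl (0.99 to 0.98) and Bmp7, Csrp2 and Ablim3 for Ezr (0.98 each). They were Vps26b, Emc1 and Fam20b for Actn4 (0.99 each), Map1s, A3galt2 and Plekhg2 for Inf2 (0.98 to 0.97) and Cdr2l, Itga3 and Kctd11 for Myo1e (0.99 to 0.98). For Anln the closest were Prkca, Antxr1 and Adamts12, at 0.83 to 0.82. Slc35b1, Csad and Lrp10 were closest to the second Cttn row, with r from 0.97 to 0.96. Wars1, Stk38 and Arl14ep were closest to Dnm2, and Snrpb, Ran and Gon7 to Cfl1, with r from 0.97 to 0.93.

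Relatives and partners of the members were examined as a list of 69 genes, of which 66 were measured. In PAN 28 of them rose and 0 fell, where 22.3% of all genes were called, with a median log2 change of 0.42. Under median-ratio scaling 16 rose and 1, Magi1, fell, where 8.63% of all genes were called. Without control rat 1 there were 35 that rose (37.5% of all genes called), and without the 3 libraries of high mitochondrial share there were 2, Synpo2l and Kif23 (0.424% of all genes called). With pioglitazone 14 rose against control (4.98% of all genes called) and with GQ-16 1, Synpo2l (0.151% of all genes called). Under median-ratio scaling these counts were 5 and 1 (2.85% and 0.741% of all genes called). Without control rat 1 they were 22 and 14 (12.6% and 11.9% of all genes called). Without the 3 libraries of high mitochondrial share both were 0 (0.0% of all genes called). Against PAN none was called with either drug. A limma unadjusted p under 0.05 was found for 3 of 66 with pioglitazone, against 3.74% of all genes, and for 15 of 66 with GQ-16, against 8.27%.

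Partners of anillin in cell division were also measured. Ect2, Racgap1, Kif23, Prc1, Aurkb and Cit, which position and drive the cleavage furrow, all rose in PAN, 6 of 6, by 1.61 to 2.35 on the log2 scale (22.3% of all genes called). With pioglitazone 6 of 6 rose (4.98% of all genes called), of which 2 under median-ratio scaling (2.85% of all genes called). With GQ-16 none was called, and 6 of 6 had a limma unadjusted p under 0.05, against 23.9% of all genes. Without control rat 1 there were 2 of 6 called with GQ-16 (11.9% of all genes called). Without the 3 libraries of high mitochondrial share 1 of 6, Kif23, was called in PAN and 0 of 6 with pioglitazone, where 0.424% and 0.0% of all genes were called. Prc1 stood at 5.69, 5.44, 7.05 and 7.45 CPM in control, at 34.4, 51.7, 29.1 and 33.9 CPM in PAN and at 23.4, 27.1, 35.8 and 5.64 CPM with GQ-16. GQ-16 rat 4 was within the control range for Prc1, Ect2 and Aurkb, below it for Racgap1 and Cit, and at 5.82 CPM for Kif23, whose highest control value was 5.38 CPM, while its Anln level of 19.9 CPM was above every control rat. The summed level of 7 proliferation markers, Mki67 and Top2a among them, ran from 33.0 to 39.1 CPM in control, 140 to 260 CPM in PAN, 98.1 to 175 CPM with pioglitazone and 26.8 to 176 CPM with GQ-16, with none at 0 reads. After group means were removed, the correlation of Anln with their mean level was 0.42 over 16 rats, against a median of -0.04 over all genes. Cfl1 also gave 0.42. With that level as a covariate Anln was not called in PAN (1.55, limma adjusted p 0.310), in a fit that called 2 genes in all.

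**Figure D5:**
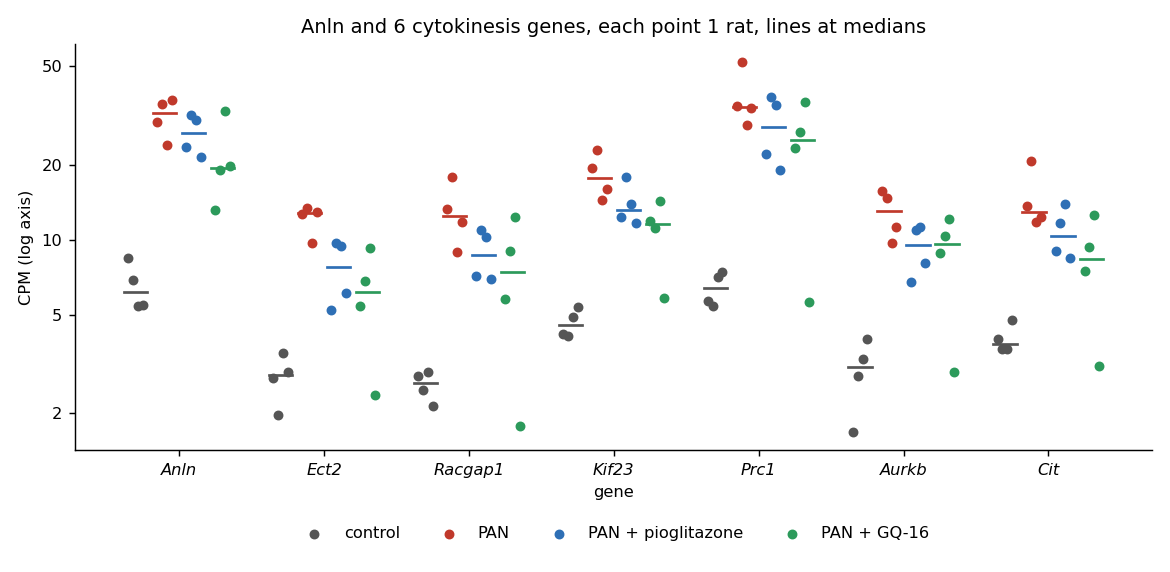
CPM (log axis) of Anln and 6 genes of cytokinesis, one point per rat with lines at the median of 4 rats, coloured by group. In 1 rat given GQ-16 the 6 genes lie near the control rats, at 5.64 CPM for Prc1, while Anln is at 19.9 CPM.

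Among the actin cross-linkers, Actn1, the relative of Actn4 found in stress fibres, stood at 130, 39.2, 38.5 and 52.1 CPM in control and at 266, 170, 158 and 139 CPM in PAN, a rise of 1.63 (limma adjusted p 0.0136). Actin itself rose in PAN, Actb by 0.80 and Actg1 by 0.45 (limma adjusted p 0.00941 and 0.0244), and Actg1 was not called under median-ratio scaling. Of the formins, the filament-elongating family of Inf2, Daam2 rose by 1.49 and Diaph3 by 1.49, and 5 of 7 were not called, near the 22.3% called among all genes. Of the 7 myosins 4 rose and 3 (Myo1c, Myo1f and Myo1g) were not called, against 22.3% called among all genes, and under median-ratio scaling 1 rose, against 8.63%. Myo1d rose by 1.60, Myh10 by 1.33 and Myh9 by 0.78, and under that scaling the last 2 were not called. Podxl2, a relative of Podxl, rose by 0.71 and was not called under median-ratio scaling. Synpo2l, a relative of Synpo, stood at 2.07, 0.927, 0.664 and 1.14 CPM in control and at 92.6, 154, 168 and 148 CPM in PAN, a rise of 6.01. It was 21.7, 87.6, 59.9 and 108 CPM with pioglitazone and 24.3, 26.9, 82.4 and 275 CPM with GQ-16, so no injured rat overlapped control. The 2 striated muscle markers in the table, Myom2 and Pygm, rose in the same comparison, with summed levels of 4.11 to 23.3 CPM in control and 234 to 428 CPM in PAN, and their part in the Synpo2l result was not tested.

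Of the 9 genes that work with Cttn, 4 rose and 5 (Hcls1, Wasl, Actr2, Actr3 and Arpc2) were not called, against 22.3% called among all genes. Was rose by 0.79, and the Arp2/3 complex subunits Arpc1b, Arpc3 and Arpc5 by 0.59, 0.67 and 0.42. Of these 4, only Arpc3 was called under median-ratio scaling. Dnm1, the relative of Dnm2, rose by 1.50, the 1 called of 6 in its group. In the cofilin group, where 5 of 9 rose, Cfl2 and Dstn each rose by 0.43, as did the kinases that inhibit cofilin, Limk1 by 0.62, Limk2 by 0.81 and Tesk1 by 0.62. Of these 5, Limk2 and Tesk1 were called under median-ratio scaling. Arhgdia rose by 0.44, a call also lost under that scaling, while Rhoa, Rac1 and Cdc42 were not called. The ezrin relatives Msn and Rdx changed by 0.28 and -0.10 and were not called, nor were the podocalyxin relative Cd34 (0.48) or the linkers Slc9a3r1 and Slc9a3r2 (-0.37 and -0.04), listed under their older symbols. Dnm3 (0.04) and Synpo2 (0.72) were not called either.

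Markers of other glomerular and kidney cells moved in the same comparison. In PAN 6 of 6 mesangial and smooth muscle markers rose, 5 of them under median-ratio scaling, with summed levels of 263 to 727 CPM in control and 1500 to 2612 CPM in PAN. These cells also express actin and myosin genes, and the part of this in the results above was not tested. Of the leukocyte markers 5 of 7 rose (471 to 826 CPM in control, 768 to 1765 CPM in PAN) and 0 of 7 under median-ratio scaling. Of the podocyte markers 4 of 12 rose and 1 of 12 under that scaling. All 7 proliferation markers and 1 of 6 endothelial markers rose under either scaling. Of the distal nephron markers 3 of 6 fell, 2 under median-ratio scaling, and none of 5 parietal epithelial or 6 proximal tubule markers was called, or had a limma unadjusted p under 0.05. Of the 2 fibroblast markers in the table Col1a1 rose, and the summed level was 10.1 to 59.6 CPM in control and 90.8 to 2529 CPM in PAN. These counts stand against 22.3% of all genes called, and 8.63% under median-ratio scaling. None of these markers was at 0 reads in any library.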

How the data were processed

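The authors deposited log2 CPM values per gene, in the form that voom writes, with 0.5 read added to each count and 1 to each total. Undoing this gave whole reads, within 0.05 read, for 100% of values. Every gene reached 2 CPM in at least 8 libraries. Per the submitters' processing notes HISAT2, featureCounts, Subread and limma were used with build Rnor_6.0. Per the labels' protocols, stranded libraries were made from 200 ng of RNA with 12 PCR cycles. CPM + 1 was put on the log2 scale and 4 group means were fitted to all 16 rats with limma 3.58.1 (R 4.3.3, variance trend, two-sided tests), which was tested on simulated data. Nothing states whether rats shared a litter or batch. Members, gene lists and the naming rule (all members, the called genes and close relatives of the list, and the 3 most similar genes per member) were chosen with earlier results of these data known. Alternatives changed scaling, pseudocount, filter, covariates and rats. 4 of them were chosen after the data were seen: voom on the recovered reads, the podocyte marker covariate with median-ratio scaling, the proliferation covariate, and leaving out libraries above 30% mitochondrial reads. Some genes that this rule names are not reported here.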

Additional observations from a re-analysis of the deposited data

How the results depend on the processing

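No paired analysis was possible because the labels give no numbers or pairing shared between groups. The planned count test with TMM scaling was not run, and voom on the recovered reads was run in its place. Members called in PAN against control numbered 5 as reported. The share of all genes called was 22.3% in that fit, and it follows each count here. They numbered 3 under median-ratio scaling (8.63%), with totals that leave out mitochondrial genes (8.25%), with voom (7.92%) and with only the 2 groups compared (11.9%). There were 2 with the podocyte marker covariate, alone (5.88%) or under median-ratio scaling (4.48%). The count was 1 without the libraries above 30% mitochondrial reads (0.424%) and with the library number covariate (2.97%), and 0 with the proliferation covariate (0.0151%). For pioglitazone against control the count of 1 (4.98%) became 0 with the proliferation covariate and without those libraries (0.0% in both). For GQ-16 against control the count of 1 (0.151%) became 0 with the proliferation covariate (0.00756%), without those libraries (0.0%), with the podocyte marker covariate alone (0.159%) or under median-ratio scaling (0.204%), and with voom (0.265%). Without each rat in turn the 3 counts ran from 2 to 8, from 1 to 6 and from 0 to 5, and the shares of all genes called from 6.34% to 37.5%, from 0.363% to 12.6% and from 0.0% to 11.9%. Over all genes the count for PAN against control was 2943 and ranged from 2 to 2962 in the 11 alternatives that kept or rescaled the libraries or left out those of high mitochondrial share, and from 838 to 4964 without each rat in turn. The causes were not tested. Between injured groups no member was called under any alternative run.

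Log2 changes of members that took the opposite sign were all uncalled in the alternative and are given by comparison. For PAN against control, the sign was opposite with the podocyte marker covariate for Podxl (-0.112), Ezr (-0.428), Cttn row 1 (-0.0332) and Cttn row 2 (-0.00330). With both the podocyte marker covariate and median-ratio scaling this held for Synpo (-0.0344), Podxl (-0.204), Ezr (-0.520), Cttn row 1 (-0.125) and Cttn row 2 (-0.0945). Without the libraries above 30% mitochondrial reads this held for Ezr (-0.00301). For pioglitazone against control, the sign was opposite with the podocyte marker covariate for Cttn row 1 (-0.00395) and Cttn row 2 (-0.0166). With both the podocyte marker covariate and median-ratio scaling this held for Podxl (-0.00957), Cttn row 1 (-0.0686) and Cttn row 2 (-0.0810). With the proliferation covariate this held for Ezr (0.239). Without the libraries above 30% mitochondrial reads this held for Cttn row 2 (-0.0373). For GQ-16 against control, the sign was opposite under median-ratio scaling for Dnm2 (-0.0374). With totals that leave out mitochondrial genes this held for Dnm2 (-0.0448). With voom this held for Dnm2 (-0.0397). With the podocyte marker covariate this held for Podxl (-0.108), Ezr (-0.369), Cttn row 1 (-0.0895), Cttn row 2 (-0.0679) and Dnm2 (-0.0484). With both the podocyte marker covariate and median-ratio scaling this held for Podxl (-0.0730), Ezr (-0.334), Cttn row 1 (-0.0551), Cttn row 2 (-0.0334) and Dnm2 (-0.0139). For pioglitazone against PAN, the sign was opposite under median-ratio scaling for Myo1e (0.00736), Cttn row 1 (0.0178), Dnm2 (0.00376) and Cfl1 (0.0118). With totals that leave out mitochondrial genes this held for Myo1e (0.00571), Cttn row 1 (0.0162), Dnm2 (0.00211) and Cfl1 (0.0101). With voom this held for Myo1e (0.0142), Cttn row 1 (0.0156), Dnm2 (0.00455) and Cfl1 (0.00835). With the library number covariate this held for Synpo (0.141), Myo1e (0.172), Cttn row 1 (0.0361) and Dnm2 (0.0183). With the podocyte marker covariate this held for Synpo (0.0674), Myo1e (0.0831) and Cttn row 1 (0.0292). With both the podocyte marker covariate and median-ratio scaling this held for Synpo (0.0945), Myo1e (0.110), Cttn row 1 (0.0561) and Cttn row 2 (0.0135). With the proliferation covariate this held for Podxl (-0.112). For GQ-16 against PAN, the sign was opposite under median-ratio scaling for Myo1e (0.0920), Cttn row 1 (0.0692) and Cttn row 2 (0.0608). With totals that leave out mitochondrial genes this held for Myo1e (0.0910), Cttn row 1 (0.0683) and Cttn row 2 (0.0599). With voom this held for Myo1e (0.0818), Cttn row 1 (0.0585) and Cttn row 2 (0.0528). With the library number covariate this held for Actn4 (0.0563), Myo1e (0.212), Cttn row 1 (0.0440) and Cttn row 2 (0.0315). With both the podocyte marker covariate and median-ratio scaling this held for Myo1e (0.0928), Cttn row 1 (0.0695) and Cttn row 2 (0.0611). With the proliferation covariate this held for Synpo (-0.227), Podxl (-0.215) and Ezr (-0.109). Without the libraries above 30% mitochondrial reads this held for Actn4 (0.0611), Myo1e (0.152), Cttn row 1 (0.112) and Cttn row 2 (0.0745). For GQ-16 against pioglitazone, the sign was opposite with the podocyte marker covariate for Synpo (-0.0586), Podxl (-0.163), Actn4 (-0.0926), Myo1e (-0.116), Cttn row 1 (-0.0856) and Cttn row 2 (-0.0513). With both the podocyte marker covariate and median-ratio scaling this held for Podxl (-0.0635) and Myo1e (-0.0172). With the proliferation covariate this held for Podxl (-0.103), Actn4 (-0.00389), Myo1e (-0.0195), Cttn row 1 (-0.0220) and Cttn row 2 (-0.0116).

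Some members also changed sign when 1 rat was left out. Pioglitazone against control gave Ezr from -0.200 to 0.264. Pioglitazone against PAN gave Podxl from -0.114 to 0.0859, Synpo from -0.631 to 0.0683 and Myo1e from -0.201 to 0.0651. GQ-16 against PAN gave Myo1e from -0.208 to 0.152, Synpo from -0.343 to 0.455, Podxl from -0.216 to 0.246, Actn4 from -0.420 to 0.0611, Cttn row 1 from -0.160 to 0.112, Cttn row 2 from -0.191 to 0.0745 and Ezr from -0.152 to 0.399. GQ-16 against pioglitazone gave Podxl from -0.218 to 0.244, Actn4 from -0.133 to 0.348, Myo1e from -0.133 to 0.227, Cttn row 1 from -0.0948 to 0.177, Synpo from -0.0626 to 0.788 and Cttn row 2 from -0.0832 to 0.182.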
